A study of Mus musculus with 8 samples.

Results

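The genes described here were 10 broadly expressed X-linked genes of basic metabolism, chosen by name, of 34324 annotated protein-coding and lncRNA genes and of 1255 such genes on the X chromosome. They were Pgk1, G6pdx, Hprt, Prps1, Pdha1, Idh3g, Ndufb11, Ndufa1, Cox7b and Gla. For each, the H3K27me3 peaks over the gene and 2.5 kb on both sides (the gene window, mm10) were taken from every library. All 10 had a peak in at least 1 library. The data are H3K27me3 ChIP-seq peak lists from neural stem cells of female mice. The cell lines had been made from E14.5 embryos with 1 deleted and 1 conditional allele of Smchd1. All lines carried, on the maternal X from strain 129, an Xist allele labelled deltaA and given as 129-KO in the genotype, and a wild-type Xist on the paternal Castaneus X, in a C57BL/6 129/Castaneus mix. The Smchd1 del/del cells (2 libraries) had been transduced with the MSCV-Cre-puro retrovirus, selected with puromycin from 24 hours and harvested on day 7. The same puromycin and harvest times are recorded for the Smchd1 del/fl cells (2 libraries), but whether these were transduced is not settled here. Deletion and transduction can therefore not be told apart, and the labels do not say which libraries came from which line.

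In female mammals 1 X chromosome is silenced in each cell, and H3K27me3, the mark laid down by Polycomb repressive complex 2, spreads over much of the silent copy. Housekeeping genes on the X are read from the active copy and are, as a rule, subject to silencing on the inactive copy. Xist RNA starts this process, and Smchd1 is a chromatin protein needed to keep many genes of the inactive X silent. The peak lists do not separate the parental chromosomes, so each value below is for the active and the inactive X together.

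MACS2 used 11793402 to 14064030 tags per H3K27me3 library after removal of duplicates, and the lists held 32971 to 45566 peaks. No peak was identical between any pair of libraries. Smchd1 and Xist had no peak in any library, so these lists do not show whether Smchd1 was deleted. Of 14 neural stem cell markers, 4 had a peak in any library (Sox1, Pax6, Msi1 and Prom1), with cover of at most 6.41%, and 11 of 18 markers of other cell types had one, from the X-linked Dcx (92.0% to 98.9%) downward. The neuronal gene Syn1, also X-linked, had the widest difference of these markers, with 38.3% and 59.1% cover against 5.70% and 7.59%. A repressive mark does not measure whether these genes were expressed.

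The promoters of the genes were compared first, as RefSeq (GRCm38.p6) gives them from 250 bases before to 50 bases after each start site. All 10 matched an entry. Their median count of CpG dinucleotides was 19.5 per 300 bases, against 7 over 32851 promoters and 7 over 1223 X promoters. Ndufa1 had the most CpGs (29) and Cox7b the fewest (5). Letters matching short promoter motifs were searched on both strands. GGGCGG, the GC box, was in 6 of the 10 (35.7% of all and 33.9% of X promoters) and CCAAT in 5 (37.4% and 45.0%). CCGGAAG of the Ets family was in 2 (8.86% and 6.79%) and AGATGGC, part of the YY1 motif, in 2 (6.40% and 6.38%). CATGCGC, part of the NRF1 motif, was in none (3.91% and 4.33%). Among all 31 matches in the 10 promoters, 1 pair overlapped. The 4 sequences below are shown because the 500 bp on both sides of their start sites contrast in the peak lists. Ndufb11 had no peak there in either del/fl library, and Hprt was covered there in 1 del/fl library. At Ndufa1 these surroundings were 64.8% and 66.5% covered in del/fl, although the start site itself lay in a peak in all 4 libraries. Idh3g was fully covered there in all 4. They lie at chrX:20617570-20617869 (minus strand), chrX:37191189-37191488 (minus strand), chrX:52987828-52988127 (plus strand) and chrX:73786848-73787147 (minus strand). Capitals mark the motif matches.
Ndufb11 promoter: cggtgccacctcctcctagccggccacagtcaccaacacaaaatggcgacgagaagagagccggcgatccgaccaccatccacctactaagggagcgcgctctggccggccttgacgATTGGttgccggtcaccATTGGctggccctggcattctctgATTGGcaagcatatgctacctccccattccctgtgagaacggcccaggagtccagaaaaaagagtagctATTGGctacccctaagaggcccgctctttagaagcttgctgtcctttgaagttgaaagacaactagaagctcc
Ndufa1 promoter: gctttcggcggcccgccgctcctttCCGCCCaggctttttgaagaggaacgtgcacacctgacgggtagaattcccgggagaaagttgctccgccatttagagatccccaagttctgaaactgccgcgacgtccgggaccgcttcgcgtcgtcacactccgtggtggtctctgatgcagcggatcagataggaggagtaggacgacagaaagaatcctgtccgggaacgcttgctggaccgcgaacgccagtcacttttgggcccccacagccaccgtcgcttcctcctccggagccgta
Hprt promoter: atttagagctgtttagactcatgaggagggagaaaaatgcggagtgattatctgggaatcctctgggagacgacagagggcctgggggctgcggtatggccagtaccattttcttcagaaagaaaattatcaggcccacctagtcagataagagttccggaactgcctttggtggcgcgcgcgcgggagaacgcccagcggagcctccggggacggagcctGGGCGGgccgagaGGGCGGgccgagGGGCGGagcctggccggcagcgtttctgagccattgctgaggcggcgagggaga
Idh3g promoter: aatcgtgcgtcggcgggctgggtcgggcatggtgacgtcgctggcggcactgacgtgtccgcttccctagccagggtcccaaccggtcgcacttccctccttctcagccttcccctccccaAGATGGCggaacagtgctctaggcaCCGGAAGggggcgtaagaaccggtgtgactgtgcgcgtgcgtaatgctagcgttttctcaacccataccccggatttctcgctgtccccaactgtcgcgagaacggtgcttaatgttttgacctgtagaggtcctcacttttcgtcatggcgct
The Ndufb11 promoter held CCAAT in 4 places, all read on the opposite strand as ATTGG, and 14 CpGs. Hprt held the GC box in 3 places and 22 CpGs, Ndufa1 held it in 1 place, and Idh3g, with 27 CpGs, held 1 Ets and 1 YY1 match. A match of letters is a description and not a bound site.

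The first comparison asked how much of each gene window lay under H3K27me3 peaks in del/del and in del/fl cells. Every one of the 10 windows was more covered in both del/del libraries than in both del/fl libraries. The median window was covered to 90.6% and 96.2% in del/del compared with 54.5% and 66.3% for del/fl. The median difference between genotype means was 34.6 percentage points, with a range from 3.30 at Idh3g to 76.4 at Ndufb11. Among the 1080 X-linked genes with a peak in any library, 76.3% were likewise higher without overlap and the median difference was 17.0 points. Over all 11333 genes with a peak, 13.3% were higher in this way and the median difference was -0.10 points. None of the 10 was lower in this way, beside 0.556% of X-linked and 14.0% of all genes. The count of 10 therefore stands beside a background in which most X-linked genes moved in the same direction. The differences of 7 of the 10 genes lay above the X-linked median and those of 6 above the upper quartile of 29.8 points.

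**Figure D1:**
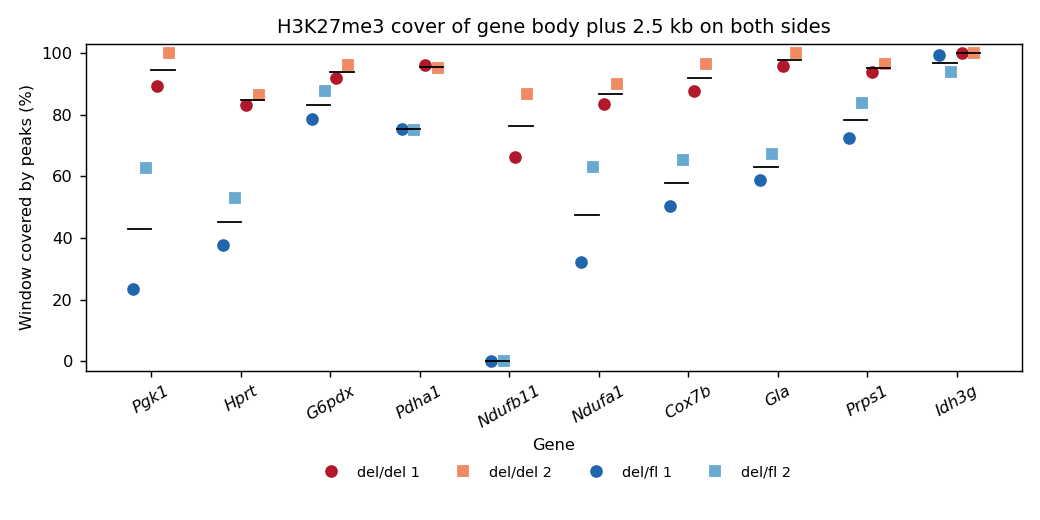
Percent of each gene window (gene body plus 2.5 kb on both sides) under H3K27me3 peaks, by gene and library; red and orange points are the 2 del/del libraries, blue points the 2 del/fl libraries, and horizontal lines the mean of each group. In all 10 genes both del/del points lie above both del/fl points, with the widest separation at Ndufb11 (66.2% and 86.7% against 0% and 0%) and the narrowest at Idh3g.

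Pgk1 encodes phosphoglycerate kinase, which makes ATP in glycolysis, and G6pdx encodes glucose-6-phosphate dehydrogenase, the entry enzyme of the pentose phosphate pathway. The Pgk1 window (X, 106184600 to 106206199) was covered to 89.4% and 100% in del/del compared with 23.4% and 62.6% for del/fl. The groups did not overlap, but the del/fl libraries lay far apart from each other. Its difference was 51.7 points (SE 16.2; limma, adjusted p = 0.572). At G6pdx (X, 74406983 to 74431380) cover was 91.9% and 96.0% in del/del compared with 78.5% and 87.6% for del/fl. This was a window already well covered in del/fl, and its difference of 10.9 points was below the median of X-linked genes.

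Hprt and Prps1 are genes of purine nucleotide metabolism: the first encodes the salvage enzyme hypoxanthine phosphoribosyltransferase, the second a phosphoribosyl pyrophosphate synthetase that supplies its sugar phosphate. Hprt (X, 52985578 to 53024160) was covered to 83.0% and 86.5% in del/del compared with 37.6% and 52.9% for del/fl. Its difference of 39.5 points (SE 6.81) exceeded the gap between libraries of either group. Prps1 (X, 140454103 to 140478640) was covered to 93.9% and 96.4% against 72.6% and 83.8%. The Prps1 difference, 16.9 points, was close to the X-linked median.

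Of the 10 genes, 5 serve mitochondria, and these held both the smallest and the largest difference. Pdha1 encodes the E1 alpha subunit of pyruvate dehydrogenase, which feeds carbon from glycolysis into the citric acid cycle. Its window (X, 160119719 to 160140930) was covered to 96.2% and 95.1% in del/del compared with 75.5% and 75.03% for del/fl, the closest agreement between replicates among the 10 genes in del/fl apart from Ndufb11. Idh3g, a subunit of the NAD-dependent isocitrate dehydrogenase of the citric acid cycle (X, 73776463 to 73789397), was covered to 100% in both del/del libraries and to 99.5% and 93.9% in del/fl. There was little room for a higher value at this gene, and the difference of 3.30 points was about its SE of 3.19.

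Ndufb11 and Ndufa1 encode accessory subunits of complex I of the respiratory chain, and Cox7b a subunit of complex IV. Ndufb11 (X, 20612826 to 20620119) was covered to 66.2% and 86.7% in del/del and held no peak in either del/fl library. No other of the 10 had peaks in each del/del library and in none of del/fl, a pattern found at 2.59% of X-linked genes and 1.95% of all genes. None had the opposite pattern (0.185% of X-linked genes and 2.22% of all genes). Its difference of 76.4 points (SE 8.63) ranked 1 among the 1080 X-linked genes. Ndufa1 (X, 37185088 to 37193738) was covered to 83.5% and 90.0% in del/del compared with 32.1% and 63.1% for del/fl. Cox7b (X, 106013200 to 106024950) was covered to 87.7% and 96.5% against 50.3% and 65.3%. Both genes had partial cover in del/fl, unlike Ndufb11.

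Gla encodes alpha-galactosidase A, the lysosomal enzyme deficient in Fabry disease. Its window (X, 134585669 to 134603505) was covered to 95.7% and 100% in del/del compared with 58.7% and 67.3% for del/fl. The difference was 34.9 points (SE 4.60), with each group within 9 points of itself.

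None of the 10 genes passed limma's test over all 11333 genes at an adjusted p of 0.05, nor did any other gene (0.0% called higher and 0.0% lower). Without adjustment, 692 genes were higher and 256 lower in limma at p under 0.05. Adjusted p ran from 0.376, shared by Ndufb11, Pdha1 and Gla, to 0.712 at Idh3g. At an unadjusted p under 0.05 in limma, 8 of the 10 were higher and none lower, beside 52.2% of X-linked genes and 6.11% of all genes. Ndufb11, among these 8, had entered the test only through its del/del peaks, so its p-values give no support to the difference. When X-linked genes were fitted alone, limma called 4 of the 10 higher, beside 310 of the 1080 X-linked genes in all. These were Ndufb11, Pdha1, Gla and Hprt, with an adjusted p of 0.0431 for the first 3 and 0.0468 for Hprt. Ndufb11 had entered this fit only through its del/del peaks, so its call gives no support to the difference. Leaving out a library left 1 genotype with a single library, assumed to vary like the other genotype, whose pair of libraries then alone gave a gene's own spread. Without del/del replicate 1, limma called Pdha1 and Ndufb11 (adjusted p = 0.0253 and 0.0140), with the spread taken from del/fl at 75.5% and 75.03% and at 0% and 0%. Here too Ndufb11 had entered the test only through its del/del peaks. Without del/fl replicate 1, limma called Idh3g (adjusted p = 0.00841), with the spread taken from del/del at 100% and 100%. These calls rest on pairs of nearly equal values and give no support to the differences. With 2 libraries a group, an exact permutation test of a single gene cannot go below p = 0.333.

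**Figure D2:**
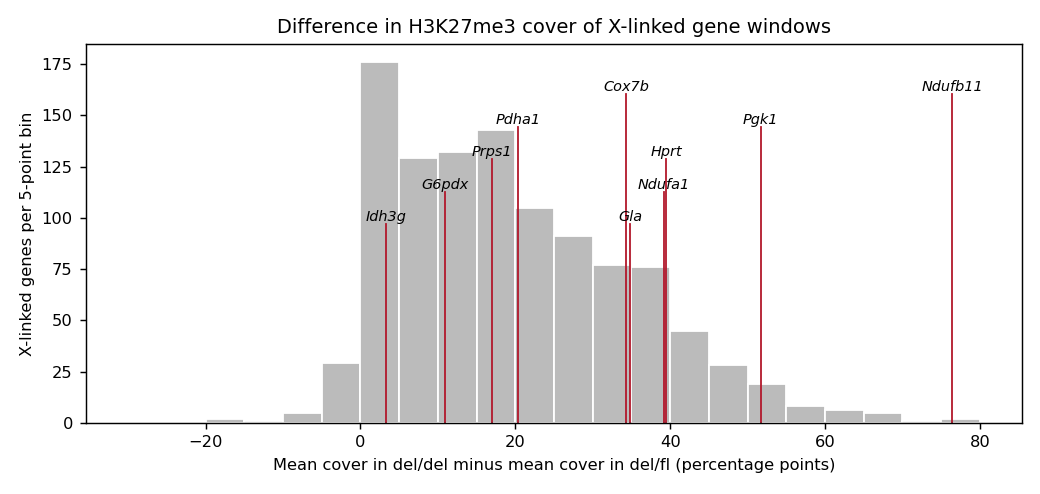
Number of X-linked genes with a peak in any library (n = 1080) by the difference in mean window cover, del/del minus del/fl, in 5-point bins; red lines mark the 10 genes. Ndufb11 stands at the right end at 76.4 points, and Idh3g, G6pdx and Prps1 lie at or below the X-linked median of 17.0 points.

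The peaks over these genes were then examined one by one. In del/fl most windows held several peaks, many of them short, with gaps between them, and in del/del most held fewer and longer ones. Together the 10 windows touched 39 and 38 peaks in del/fl and 25 and 19 in del/del. The median length of these peaks was 1891 and 3428 bp in del/fl and 8572 and 23291 bp in del/del. Over all X peaks the median was 1368 and 1454 bp in del/fl and 1837 and 2000 bp in del/del. A long peak is more likely to touch a window than a short one, so the 2 sets of medians are not alike. Those over 20 kb long that touched the 10 windows were 1 and 1 for del/fl, but 7 and 10 for del/del. These counts have no share over other X-linked genes beside them. Peaks were fewer without overlap at 6 genes (Pgk1, G6pdx, Pdha1, Cox7b, Gla and Prps1), beside 44.4% of X-linked and 9.03% of all genes. They were more numerous only at Ndufb11 (2 and 2 against 0 and 0), beside 10.4% of X-linked and 4.87% of all genes. Pgk1 was crossed by 6 separate peaks in each del/fl library, by 3 in del/del replicate 1 and by a single one of 31.1 kb in del/del replicate 2. The longest stretch of its window without a peak was 7915 and 3115 bp in del/fl and 1207 and 0 bp in del/del.

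**Figure D3:**
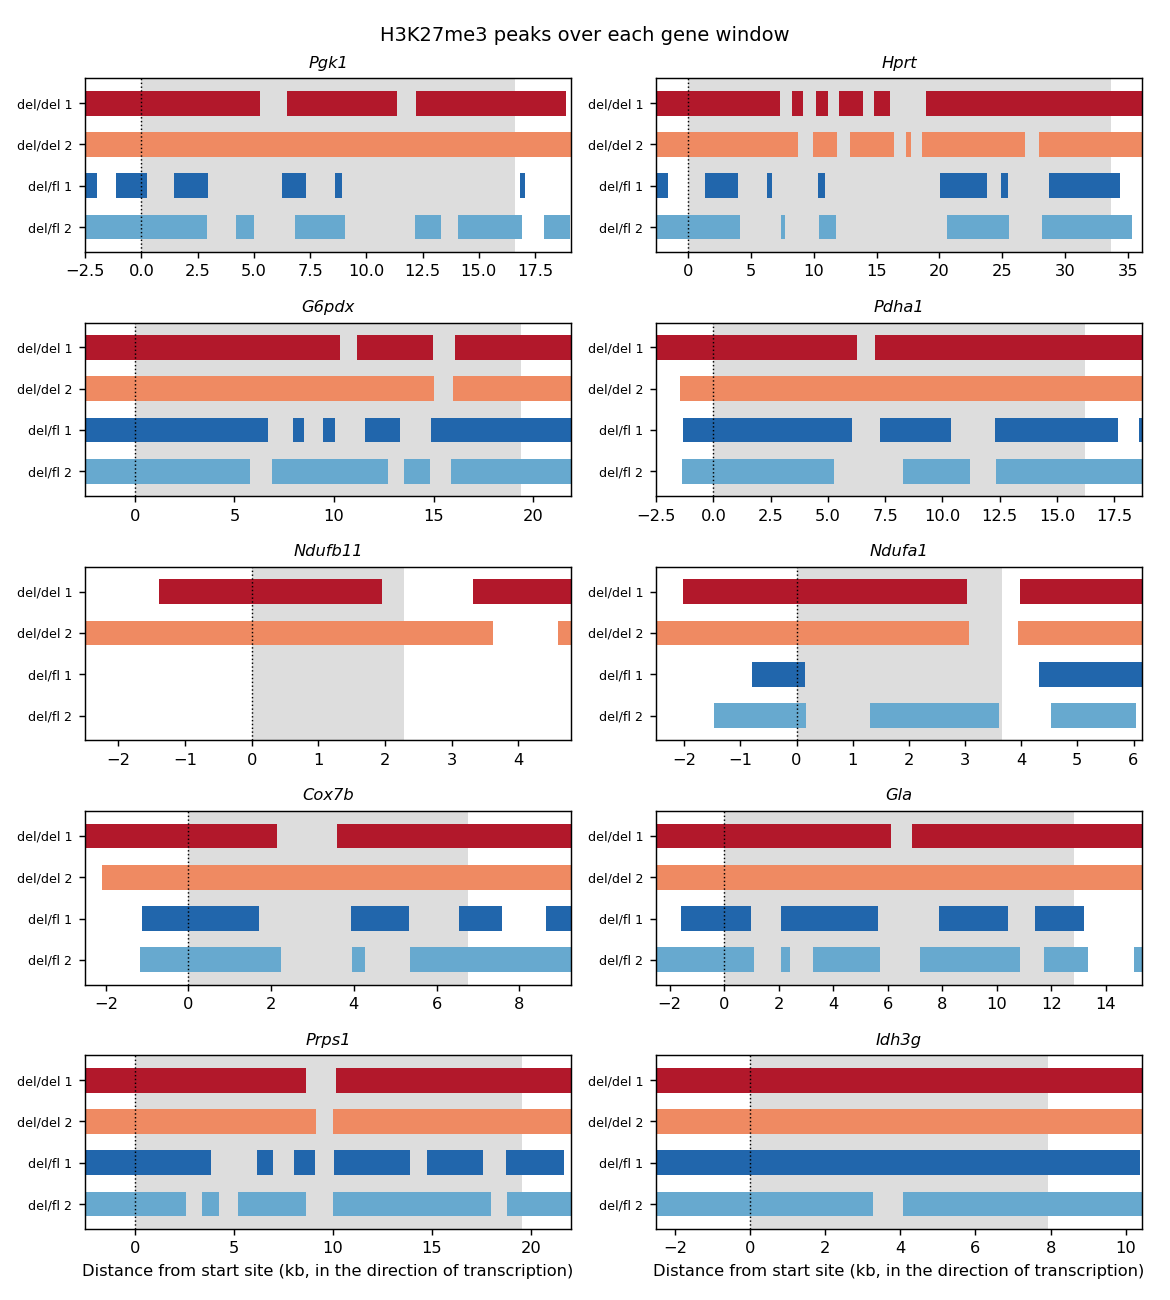
H3K27me3 peaks (coloured bars) in each gene window and library, against the distance from the start site in kb in the direction of transcription; grey marks the gene body, the dotted line the start site, and bars are clipped at the window's edges. The del/fl rows are broken into pieces in 8 of the 10 genes, among them G6pdx, whose longest del/fl peaks are 18.8 and 20.9 kb before clipping. Ndufb11 has no peak in the del/fl rows, and Idh3g is nearly unbroken in all 4 rows.

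The longest peak touching each window was longer in both del/del libraries than in both del/fl libraries at all 10 genes, beside 81.8% of X-linked genes (0.463% were shorter in this way). Folds between genotype means ran from 1.71 at G6pdx to 19.1 at Hprt over the 9 genes with a peak in every library, with a median of 5.01. The median over X-linked genes with a defined fold was 2.91. The Hprt window touched peaks of up to 61.4 and 184.6 kb in del/del compared with 5669 and 7198 bp for del/fl. The longer of the del/del peaks, at X 53016011 to 53200606, began inside the gene and ran past its 3' end, and it was the 2nd longest of 13581 X peaks in its library. Pdha1 touched peaks of 42.5 and 102.1 kb against 7410 and 8296 bp, and Idh3g peaks of 60.2 and 112.8 kb against 20.3 and 14.2 kb. G6pdx changed least in this respect, with 33.9 and 34.0 kb against 18.8 and 20.9 kb, and its libraries agreed closely within each genotype. Ndufb11 had short peaks in del/del (3351 and 7091 bp), at X 20615666 to 20619016 in replicate 1 and X 20613990 to 20621080 in replicate 2.

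On the log2(length + 1000 bp) scale, where a length of 0 bp was entered for no peak, the longest peak differed by 3.86 at Hprt (SE 0.54; limma, adjusted p = 0.0689), 2.92 at Pdha1 (SE 0.45; adjusted p = 0.0808) and 2.57 at Ndufb11 (SE 0.42; adjusted p = 0.0864). At an unadjusted p under 0.05 the longest peak was longer at all 10 genes, beside 63.6% of X-linked and 6.82% of all genes. Ndufb11, 1 of these 10, had entered the test only through its del/del peaks, and both its del/fl values were the 0 bp entered. Its p-values therefore give no support to the difference. None of the 10 passed the test over 11333 genes, in which limma called 0.0353% of genes longer (0.278% of X-linked genes) and 0.0176% shorter. The median difference was 2.18 over the 10 genes, 1.31 over X-linked genes and -0.05 over all genes. Without del/del replicate 1, limma called Ndufb11 (adjusted p = 0.0491), with the spread taken from the 0 bp entered for both del/fl libraries. Without del/fl replicate 1, it called G6pdx (adjusted p = 0.0429), with the spread taken from 33854 and 34022 bp in del/del. As for cover, these calls give no support to the differences.

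**Figure D4:**
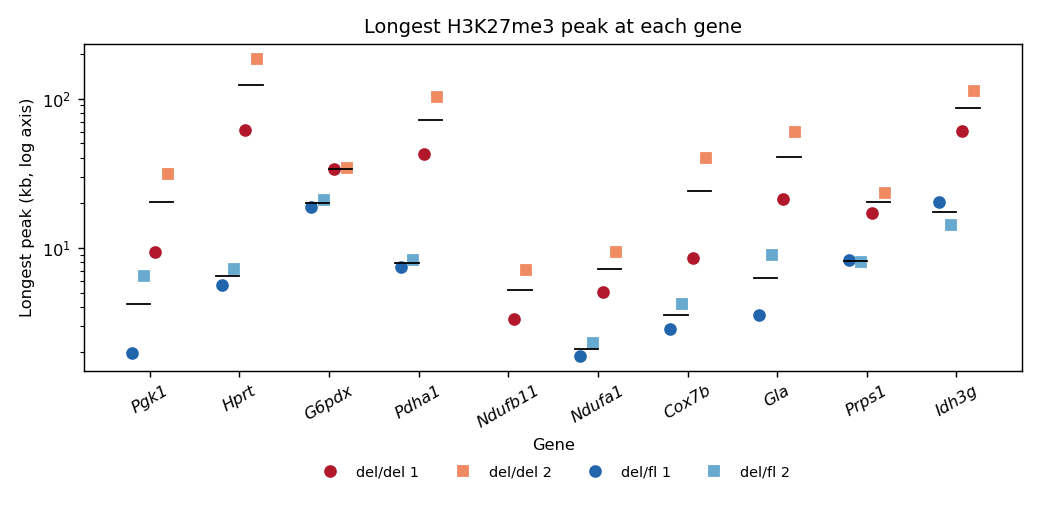
Length of the longest H3K27me3 peak touching each gene window, in kb on a log axis, by gene and library, with group means as horizontal lines. The del/del points lie above the del/fl points at 9 genes; Ndufb11 has no del/fl point, since no peak was called there, and Hprt reaches 184.6 kb in del/del replicate 2.

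Peak height, taken as the highest pileup at each gene and scaled for depth, differed by at most 1.30-fold between genotype means. At 6 genes that highest value was taken from more peaks in each del/fl library than in either del/del library, which limits the comparison. The pileup is the authors' mean number of stacked tags over a peak. Over the peaks touching the 10 windows it ran from 6.69 to 11.3 and from 5.76 to 10.3 in del/del, and from 6.10 to 9.86 and from 5.06 to 8.62 in del/fl. Fold enrichment over the whole-cell extract ran from 2.73 to 4.85 over all 4 libraries. The libraries differ in depth, so the highest pileup at each gene was scaled to 1000000 tags used. At G6pdx this gave 0.738 and 0.794 in del/del compared with 0.604 and 0.577 for del/fl, a 1.30-fold difference (log2 difference 0.37, SE 0.11; limma, adjusted p = 0.147). It was the largest ratio among the 9 genes with a peak in all libraries. Hprt followed with 0.755 and 0.8003 against 0.704 and 0.622, again without overlap. Pgk1 overlapped, with 0.711 and 0.652 against 0.712 and 0.669. Prps1 was lower in del/del, with 0.656 and 0.679 against 0.742 and 0.727. The sign at Pgk1 and Prps1 was not stable: with the pileup averaged over covered bases both were higher in del/del, by 0.059 and 0.13 on the log2 scale.

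In all, 5 of these 9 genes were higher without overlap and 1 was lower, beside 54.1% and 8.52% of 974 X-linked genes and 12.7% and 39.4% of 5616 genes with a peak in all libraries. Ndufb11 could not enter this comparison, since a pileup exists only where a peak was called. limma called none of the 9 genes over the 5616 genes tested (adjusted p from 0.147 to 0.929), with 2 higher at an unadjusted p under 0.05 (16.2% of X-linked and 3.38% of all genes). It called 0.089% of all genes (0.103% of X-linked genes) higher and 0.249% lower. The median log2 difference was 0.18 over the 9 genes, 0.12 over X-linked genes and -0.10 over all genes. As deposited, without scaling for depth, the Pgk1 difference was 0.082 in place of -0.019, so its sign depends on the scaling.

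Within the windows, cover in del/fl was highest at the start site. The 500 bp on both sides of it were covered to 74.0% and 86.7% on average, and the gene bodies to 49.8% and 62.8%. The start sites were fully covered at 6 and 8 of the 10 genes in del/fl and at all 10 in both del/del libraries. Start-site cover exceeded body cover at 7 and 8 of the 10 genes in del/fl. These counts have no share over X-linked genes beside them. Over 733 X-linked protein-coding genes, mean del/fl cover was also higher near the start site. It was 60.1% and 66.0% in the 500 bp before it, and 56.3% and 60.8% in the 500 bp that begin 5 kb after it. The start site itself lay in a peak in all 4 libraries at 8 of the 10 genes, beside 53.5% of 733 X-linked protein-coding genes with a known strand. Hprt lacked a peak at its start site in del/fl replicate 1 only, where the flanking 1 kb had 0% cover against 100% in the other 3 libraries. At Ndufa1 it was 64.8% and 66.5% covered in del/fl and 100% in both del/del libraries. The 2.5 kb to each side of the 5' end were more covered in del/del without overlap at 5 genes, beside 47.8% of X-linked genes.

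The counts of genes without overlap differed between the parts of the windows. Cover was higher in del/del without overlap at 9 of 10 gene bodies, beside 67.1% of the 733 X-linked protein-coding genes. The same held for 6 flanks beyond the 3' end (36.4% of the 733) and 4 flanks before the 5' end (34.4%). It held for the surroundings of 2 start sites, those of Ndufb11 and Ndufa1 (20.3%). The X-linked genes had the same order of counts, with most in bodies and fewest at start sites. A part fully covered in a del/fl library cannot be higher in del/del without overlap. The start-site surroundings were full at 6 and 8 of the 10 genes in del/fl, and the parts also differ in length. The counts therefore do not show which part changed most. The body of Idh3g was the exception, at 100% in del/fl replicate 1. Pgk1 had the widest contrast among genes with a del/fl peak, with 87.6% and 100% of its body covered in del/del compared with 19.1% and 57.8% for del/fl. The 2.5 kb beyond the 3' end of Gla were fully covered in del/del compared with 15.4% and 33.7% for del/fl. At G6pdx both flanks were fully covered in all 4 libraries, and only the body differed (89.8% and 95.0% against 73.0% and 84.5%).

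**Figure D5:**
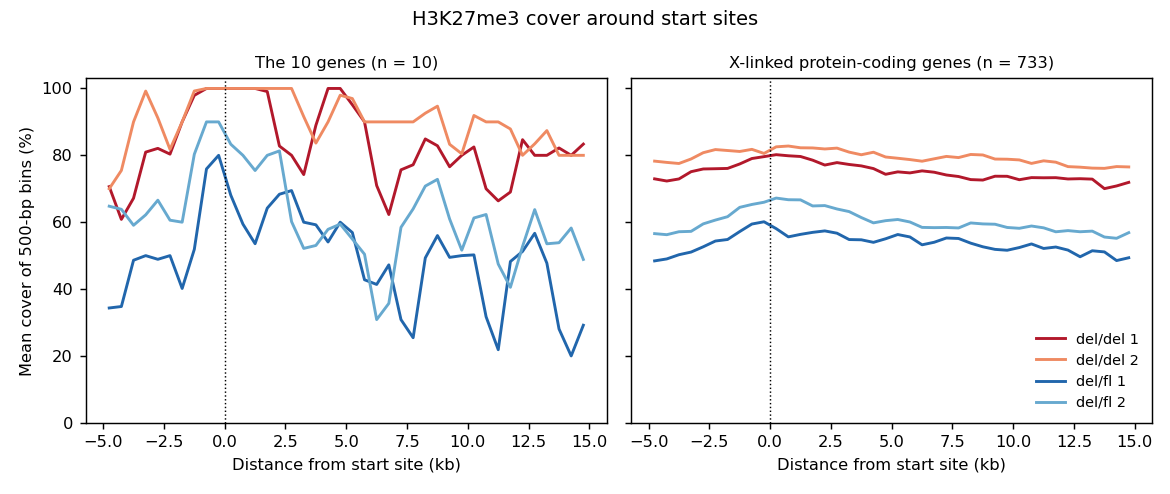
Mean cover of 500-bp bins from 5 kb before to 15 kb after the start site for the 10 genes (left) and for 733 X-linked protein-coding genes, which include them (right); each line is 1 library. In the 10 genes the del/fl lines are highest in the bin just before the start site (in replicate 2 equal to the bin before that), at 80% and 90% against 100% in del/del; over the 733 genes the same bin is at 60.1% and 66.0% in del/fl and 79.6% and 80.6% in del/del.

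The surroundings of the genes were also more covered. In the 50 kb on each side of the windows, cover was higher in both del/del libraries than in both del/fl libraries at all 10 genes, beside 94.0% of the 733 X-linked protein-coding genes. This count is close to the background. The difference between means ran from 22.3 points around Idh3g to 44.8 points around Pdha1. Ndufb11 lay in the barest surroundings, with 26.4% and 37.8% cover in del/del compared with 0.948% and 7.82% for del/fl. The other 9 genes had surroundings covered to at least 63.6% in del/del and 39.7% in del/fl. Around Idh3g cover in del/fl was 66.6% and 77.0%, and around Pdha1 it was 45.7% and 52.3%.

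Several windows hold parts of neighbouring genes, to which the same peaks belong as much. Rbm10, an RNA-binding splicing regulator, overlaps 2763 bp of the Ndufb11 window and had 28.1% and 39.3% cover of its own window in del/del compared with 0.794% and 2.91% for del/fl. Ikbkg, which encodes the NEMO subunit of the IkappaB kinase, spans the whole G6pdx window. Rnf113a1 overlaps the Ndufa1 window, Rpl36a and Hnrnph2 the Gla window, Srpk3 and Ssr4 the Idh3g window, and Map3k15 and Gm39547 the Pdha1 window. Rpl36a, a ribosomal protein gene, was covered to 100% in both del/del libraries and to 49.6% and 65.6% in del/fl. Ssr4 was at 100% in all 4 libraries, like the neighbouring start of Idh3g. The windows of Pgk1, Hprt, Cox7b and Prps1 held no other protein-coding or lncRNA gene.

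Other genes of the same kind were taken from lists. As background, 76.3% of X-linked genes with a peak and 13.3% of all such genes were higher without overlap. The X-linked median difference was 17.0 points. Of 28 other X-linked genes of energy and intermediary metabolism, 26 had a peak, of which 24 had a higher and none a lower mean in del/del, 20 of them without overlap. Their median difference was 16.5 points. Sms, the spermine synthase gene, was covered to 86.1% and 91.9% in del/del compared with 36.1% and 61.1% for del/fl, and Maob, which encodes monoamine oxidase B, to 37.2% and 51.6% against 0.551% and 7.66%. Of 14 other X-linked mitochondrial genes, 13 had a peak and all 13 were higher in mean, 11 without overlap, with a median difference of 16.2 points. Slc25a5, an ADP/ATP carrier gene, was covered to 100% and 89.2% against 48.5% and 56.1%, and Apool, a gene of the MICOS complex of the inner membrane, to 57.0% and 71.3% against 27.3% and 22.6%. Among 36 other broadly expressed X-linked genes, 34 had a peak, 33 were higher in mean and 31 without overlap, with a median difference of 22.8 points. Rpl39, a ribosomal protein gene, led with 81.6% and 94.7% against 37.6% and 29.2%, and Eif1ax, a translation initiation factor gene, followed with 86.2% and 91.7% against 38.5% and 41.5%. Sms and Ogt stand on the first and the last list, and Rpl36a, Ssr4, Rbm10 and Hnrnph2 of the last list lie in the windows described above. limma called no gene of these 3 lists (0.0% of all genes called). At an unadjusted p under 0.05 in limma, 15, 7 and 19 were higher and none lower, beside 52.2% of X-linked and 6.11% of all genes higher.

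Autosomal genes of the same pathways were nearly bare of the mark in both genotypes. Of 28 such genes, among them Pdhb, Ndufs1, Cox4i1, Idh3a and Gapdh, 3 had a peak in any library. Ndufb8, a complex I subunit gene on chromosome 19, had the most cover, with 9.89% and 3.18% in del/del compared with 2.08% and 8.36% for del/fl, so the genotypes overlapped. Taldo1 and Ndufa9 had at most 1.27% in 1 del/fl library each. The autosomal retrogene copies Pgk2, Pdha2, G6pd2, Prps1l1 and Prps1l3 had no peak in any library.

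Of 11 genes listed as escaping X inactivation, 6 had a peak, beside 1080 of 1255 X-linked genes. Of these, 5 were higher in mean and 3 without overlap (76.3% of X-linked genes), with a median difference of 14.1 points. Shroom4 was covered to 48.9% and 64.4% in del/del compared with 10.3% and 17.4% for del/fl, and Car5b, a mitochondrial carbonic anhydrase gene, to 92.4% and 91.6% against 59.5% and 59.9%. Kdm5c, a histone demethylase gene, had at most 1.55% cover in any library. None was called by limma, and 2 were higher and none lower at an unadjusted p under 0.05, beside 52.2% of X-linked genes higher.

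The X-linked protein-coding genes with cover most like that of Ndufb11 over the 4 libraries, by Euclidean distance in percentage points, were Ppp1r3f (14.49), Cfp (21.2) and Elk1 (25.7). Ppp1r3f was covered to 63.9% and 86.1% in del/del compared with 1.54% and 14.2% for del/fl. Near the median of the 10 lay Itgb1bp2 (3.57) and Xlr (4.17). Itgb1bp2 was covered to 87.9% and 96.2% against 52.7% and 64.8%.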

How the data were processed

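H3K27me3 and whole-cell extract libraries were made from 8 samples, 4 of each kind. Per the submitters' processing notes, reads were aligned with Bowtie 0.12.9 to mm10. Per the file headers, broad peaks were called for each sample with MACS2 2.1.0.20140616 against its own whole-cell extract, with a stated q-value of 0.05. By the same headers, 1 tag was kept at each position and the larger of both libraries was sampled down at random to the smaller. Local background was taken over 1000 and 10000 bp. The highest q-value deposited in a list ran from 0.0918 to 0.0983, so not every peak counted here lay under 0.05. The pileup deposited is a signal, the mean height of stacked tags over a peak, the deposited fold enrichment is the ratio to local background, and p-values and q-values are deposited as −log10. All are the authors' own values.

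Gene coordinates came from a RefSeq table of GRCm38.p6, the build of mm10, with strand from its promoter table. From the lists, covered base pairs (an overlap of 1 bp counts), the longest peak and the highest pileup per 1000000 tags were computed per gene window in Python 3.11.15. limma 3.58.1 (R 4.3.3) compared 2 against 2 libraries over all genes with a peak in any library (for pileup, in all), two-sided, with robust moderation, a mean-variance trend and adjustment after Benjamini and Hochberg. No label ties a library to an embryo. The p-values here therefore reflect how far these libraries spread, and that spread may be technical. The named genes were the 10 genes, genes overlapping their windows, the 2 highest and, where below 0, the lowest difference of each list, and the 3 most alike, of which 1 is not reported here. Members and lists were chosen with earlier results of these data known. Alternatives changed the window, the peak threshold, the minimum overlap, list lengths, filters, scaling and variance settings, left out each library and added a replicate block; fold enrichment in place of pileup and a trend without robust fitting were added after seeing the data. The scripts were tested on simulated data.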

Additional observations from a re-analysis of the deposited data

How the results depend on the processing

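Higher cover without overlap held at 10 of the 10 genes with a flank of 5 kb, equal lists or a minimum of 200 bp. Beside these stood 81.4%, 77.4% and 76.4% of X-linked genes. It held at 9 with stricter peaks (−log10 q of at least 2) or gene bodies only, beside 78.1% and 67.9% of X-linked genes. Around the 5' end it held at 5, close to the X-linked share of 47.8%. No cover or longest-peak difference reversed in any alternative, but around the 5' end the cover difference was 0.0 points at G6pdx, Prps1 and Idh3g. limma's calls moved more. For cover, 19 genes were called higher and 1 lower around the 5' end, 27 and 3 (1 of the 10 genes) with a mean cover of at least 10%, and 9 and 1 without robust fitting. With X-linked genes alone, 310 of 1080 were called higher (4 of the 10). Without 1 library, where the lone library of a genotype is assumed to vary like the other genotype, 0 to 1368 genes were called higher, 0 to 1521 lower and 0 to 2 of the 10, the highest counts without the first del/del library (1368 higher) and the first del/fl library (1521 lower). For the longest peak, 4 and 2 genes became 1 and 1 with 200 bp added and 0 and 0 with stricter peaks, and without 1 library 0 to 997 and 0 to 1156, with 0 to 1 of the 10. For pileup, 5 and 14 became 1 and 4 when averaged over covered bases (weighted), 38 higher when unscaled, 6 lower with fold enrichment, and 6 to 26 and 10 to 90 without 1 library. Pgk1 pileup turned positive when weighted (0.059), unscaled (0.082) and as fold enrichment (0.038), and ran from -0.082 to 0.043 without 1 library, being positive without the second del/del library (0.043) or the first del/fl library (0.025). Prps1 pileup did so when weighted (0.13) and as fold enrichment (0.027). The cause was not tested. A fit of all genes without the peak filter could not be made, since most variances were 0.

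The replicate numbers are not stated to pair libraries. Deviations of same-numbered libraries correlated at 0.187 over genes and at 0.0825 over X-linked genes. With the replicate block, cover gave 0 calls, the longest peak 826 higher and 223 lower (9 of the 10 genes), and pileup 8 higher and 14 lower (0 of the 9). Each fit left 1 or 2 residual degrees of freedom, which limits every call. Pileup depends on depth, which ran from 11793402 to 14064030 tags.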

Other observations

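Libraries of the same genotype differed in a regular way at these genes. Cover was higher in replicate 2 than in replicate 1 at 8 of the 10 genes in del/del (lower at 1) and at 7 in del/fl (lower at 2), and the longest peak was longer in replicate 2 at 10 and 7 genes. The deposited pileup went the other way, being lower in replicate 2 at all 10 genes in del/del and at 8 of 9 in del/fl. Scaled to 1000000 tags used, the highest pileup was lower in replicate 2 at 6 genes and higher at 4 in del/del. In del/fl the scaled value was lower at 8 genes and higher at 1. In both genotypes replicate 2 had fewer tags used (12819919 against 14064030 in del/del, 11793402 against 13288499 in del/fl) and a longer peak list (39982 against 32971, and 45566 against 36934). The part of depth in these differences was not tested.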
